A study of Mus musculus with 20 samples.

Results

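The genes described here build cholesterol or handle it inside the cell, and they were chosen by name for that role as a list of 30 symbols, all of which were found among the 55487 genes of the count files. They fall into 4 groups by role: the mevalonate part of the pathway with 8 genes, the squalene and sterol part with 12, regulators with 5, and transport, esterification and release with 5. Expression was measured in granulosa cells (GCs) of 20 young adult female mice of 2 Dummerstorf lines, the FL1 line, bred over many generations for large litters, and the ctrl line, which comes from the same founders and was not selected. There were 4 groups of 5 mice: ctrl in estrus, FL1 in estrus, ctrl in diestrus and FL1 in diestrus. The labels name no treatment, and each mouse gave 1 library. The GCs came from the wall of the largest follicles of each ovary, with the oocyte and its cumulus cells left out, so they stand for late follicles and not for all GCs of an ovary. FL1 and ctrl are 1 line each, so selection and chance drift cannot be told apart.

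Cells make cholesterol from acetyl-CoA. The mevalonate part of the pathway yields isoprenoid units, which are joined to squalene, closed to lanosterol and trimmed in many steps to cholesterol. The transcription factors SREBP switch these genes on together when sterol in the endoplasmic reticulum is low, and INSIG proteins hold SREBP back when sterol is plentiful. In the ovary cholesterol is the raw material of progesterone and estradiol, and GCs obtain it by synthesis, from lipoproteins and from stored esters. Estrus is the stage of the cycle around ovulation, and diestrus is the stage between ovulations.

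Between 5446576 and 8257041 reads per mouse were counted on genes. The libraries hold tags from the 3′ end of each transcript, so a count does not grow with transcript length. Reads scaled to a common library size (CPM) can be compared between genes only roughly, as reads that match several places are not counted. Of 10 GC markers 9 were detected in all 20 mice, with a summed level between 5794 and 16026 CPM. Genes used as markers of other cells were found too. The 6 luteal markers summed to 245 to 606 CPM in ctrl and 1649 to 4355 CPM in FL1 mice in estrus, and to 371 to 769 CPM in ctrl and 485 to 3105 CPM in FL1 mice in diestrus. They are Akr1c18, Ptgfr, Lhcgr, Prlr, Sfrp4 and Parm1, and medians in FL1 estrus were 2079 CPM for Akr1c18 and 510 CPM for Prlr. For its granulosa samples the paper lists Akr1c18, Lhcgr, Prlr and Sfrp4 as raised in FL1 over ctrl at estrus. The luteal sum therefore cannot tell luteal cells from GCs that express these genes. The 5 markers of fibroblasts and stroma summed to 430 to 1208 CPM in estrus and to 67.1 to 817 CPM in diestrus. FL1 diestrus replicate 1 had the highest luteal, stromal, endothelial, theca, macrophage and red blood cell sums of its group. Results of Hsd17b7 and Msmo1 that rest on it are also given without it. Oocyte markers summed to 45.4 to 463 CPM and were detected in every mouse. In bulk samples fewer cells of a type and less RNA per cell cannot be told apart.

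Of the 30 genes 29 had a count in every mouse and passed the filter on low counts in every comparison. The exception was Idi1, the isomerase that balances the isoprenoid building blocks, with 60 reads over all mice and none in 11 of 20, and it was left out of the tests. Near-identical copies (4) of its 3′ end exist in the transcript set, one with 100% identity over 378 nt, and reads that match several places are not in these counts. The highest level was that of Soat1, the enzyme that esterifies cholesterol for storage, with a mean of 981 CPM over 20 mice. Next came Scap, the escort protein of SREBP, with 538 CPM, Msmo1, a demethylating oxidase of the sterol part, with 395 CPM, and Hmgcs1, the cytosolic HMG-CoA synthase, with 236 CPM. The lowest tested members were Lipe with 16.9 CPM, Pmvk with 14.3 CPM and Tm7sf2 with 11.6 CPM.

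**Figure D1:**
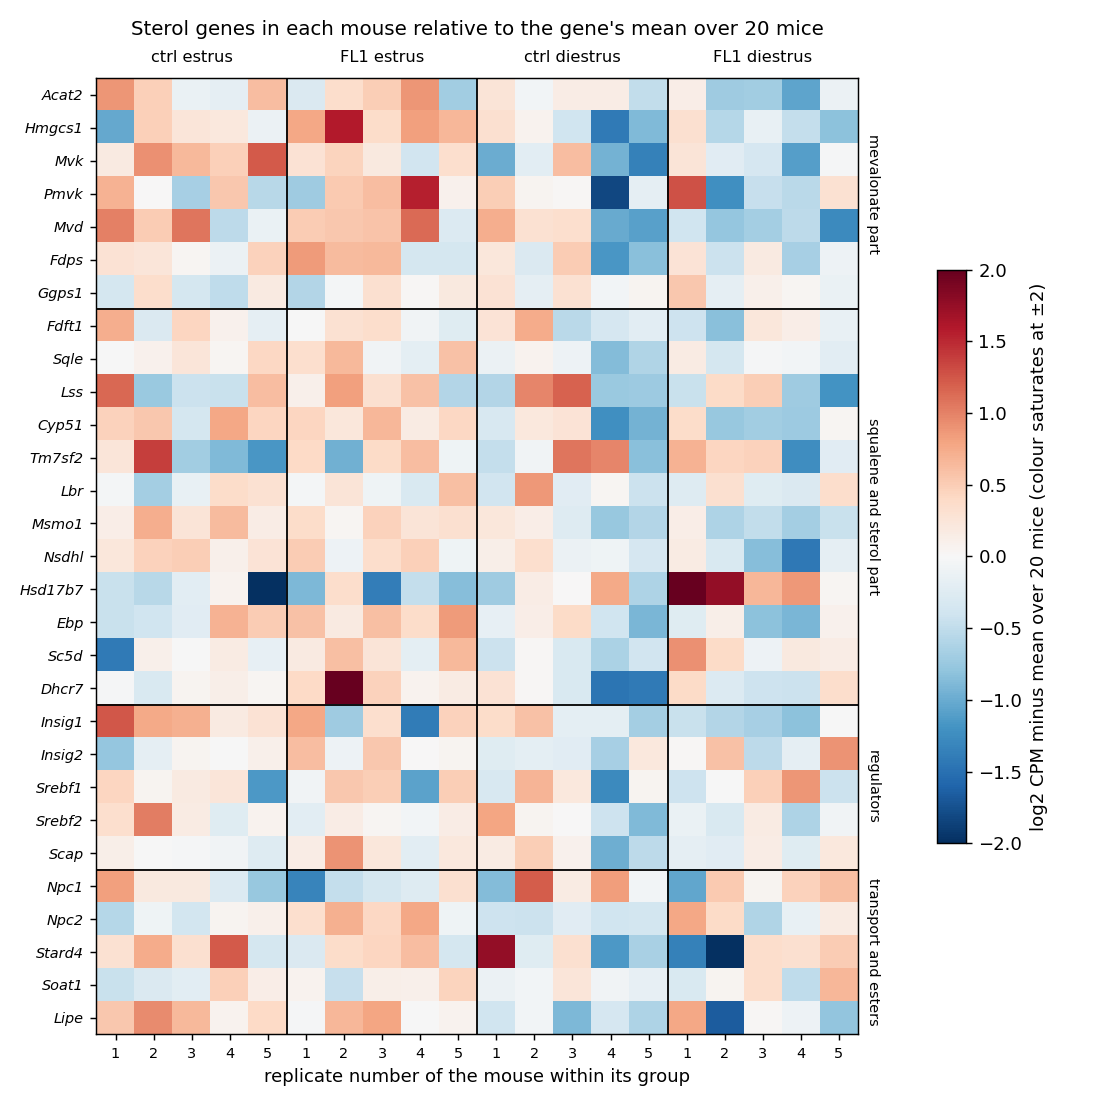
Level of each of the 29 tested genes (rows, grouped by role) in each of the 20 mice (columns), as log2 CPM minus the mean of the gene over the 20 mice. Many rows of the upper 2 blocks turn from red in estrus to blue in diestrus, ctrl diestrus replicates 4 and 5 hold the most blue, and Hsd17b7 shows the opposite order.

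The first question was whether these genes follow the stage of the cycle. For most of them the estimate in diestrus was below that in estrus, in ctrl as well as in FL1 mice. The mean log2 CPM over the 29 genes was 6.03 ± 0.09 (SD, n = 5) in ctrl and 6.13 ± 0.12 in FL1 mice in estrus, against 5.76 ± 0.35 in ctrl and 5.80 ± 0.21 in FL1 mice in diestrus. The fitted difference was below 0 for 23 of 29 genes in ctrl mice, with a median log2 fold change of -0.23, and for 24 of 29 in FL1 mice, with a median of -0.39. Over all genes tested the share below 0 was 49.6% in ctrl and 48.9% in FL1 mice. These shares are descriptions, as the list was chosen with results known.

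Leaving out 1 mouse at a time changed the number of genes below 0 in ctrl mice to between 17 and 25 and in FL1 mice to between 22 and 24. The lowest number, 17, was reached without ctrl diestrus replicate 4. In ctrl mice in diestrus the per-mouse means of the 29 genes were 5.92 to 6.11 in replicates 1 to 3, within the range of ctrl mice in estrus, and 5.39 and 5.36 in replicates 4 and 5, below every other mouse. Replicate 4 had 21.3% mitochondrial reads, the highest share of the 20 libraries, and replicate 5 had 12.1%. Stromal markers moved with the stage as well, and in ctrl mice their sums of 430 to 984 CPM in estrus and 67.1 to 425 CPM in diestrus did not overlap. In FL1 mice the luteal markers had a median sum of 3363 CPM in estrus and 1021 CPM in diestrus. Markers of ovarian surface epithelium had 59.2 and 8.10 CPM. In ctrl mice the medians were 522 and 698 CPM for luteal markers and 19.5 and 23.8 CPM for surface epithelium. The part of RNA quality and of the cells behind these sums in the result was not tested. In FL1 mice in diestrus the per-mouse means of the 29 genes were 6.11, 5.65, 5.79, 5.57 and 5.87. Of these 5, 4 lay below all FL1 mice in estrus, which ranged from 6.04 to 6.28.

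**Figure D2:**
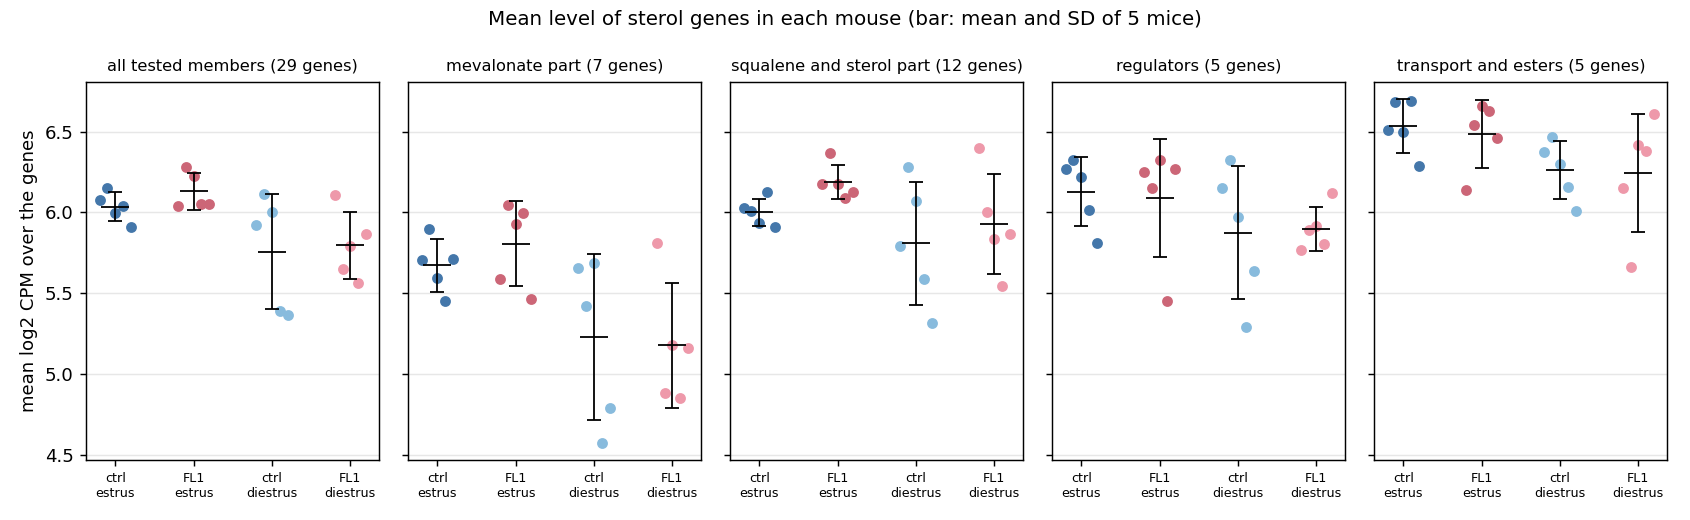
Mean log2 CPM per mouse (y axis) over all 29 tested genes and over the genes of each role, in the 4 groups (x axis), with points for mice and bars for the mean and SD of 5 mice. The mevalonate part shows the widest gap, with 5.67 and 5.80 in ctrl and FL1 mice in estrus and 5.23 and 5.18 in diestrus, and its groups overlap.

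With 10 mice at a time, no gene of the list passed the threshold of an adjusted p of 0.05 in edgeR's quasi-likelihood test with Benjamini-Hochberg adjustment. In ctrl mice 0 of 29 genes passed, where 1.36% of all genes did, while 4 of 29 had an unadjusted p under 0.05 (11.8% of all genes). With 1 mouse left out, 3 to 9 had such a p. The 9 were reached without ctrl diestrus replicate 1, where 1438 of all 13404 genes had it. DESeq2 called 1 (Lipe, against 2.19% of all genes). In FL1 mice 0 of 29 genes passed, where 0.221% of all genes did, while 9 of 29 had an unadjusted p under 0.05 (9.48% of all genes). With 1 mouse left out, 7 to 12 had such a p. DESeq2 called 4 (Hmgcs1, Hsd17b7, Msmo1 and Mvd, against 1.09%). Mice of the 2 stages did not overlap in the level of 1 gene in ctrl mice (Lipe, against 3.66% of all genes) and of 3 genes in FL1 mice (Ebp, Mvd and Hmgcs1, against 2.42%), and all of these were lower in diestrus.

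After these results had been seen, the stages were also compared over both lines with the line as a term, which uses all 20 mice. In this comparison 4 of 29 genes passed, where 3.47% of all genes did. Msmo1, Cyp51 and Hmgcs1 fell in diestrus and Hsd17b7 rose. In GENCODE M21, on GRCm38, these protein-coding genes lie on chromosome 8 from 64718139 to 64733792, chromosome 5 from 4081145 to 4104746, chromosome 13 from 119690379 to 119708260 and chromosome 1 from 169949535 to 169969241. DESeq2 called these 4 and Mvd and Mvk, 6 in all, where it called 3.25% of all genes. An unadjusted p under 0.05 in edgeR was reached by 14 of 29 genes, 13 of them lower in diestrus, where 15.3% of all genes reached it in either direction and 7.68% in that direction. Without a threshold 24 of 29 genes were lower, where 49.4% of all genes were. The comparison shares its mice with those within the lines and is no separate evidence. The call of Msmo1 remained without any 1 of the 20 mice, while those of Hsd17b7, Cyp51 and Hmgcs1 were lost without 8, 15 and 15 of them. Without FL1 diestrus replicate 1 the number of calls was 7, and the share of all genes called was then 5.06%. The number of calls was 1 without ctrl diestrus replicate 4, FL1 estrus replicates 1, 2, 3 or 5, or FL1 diestrus replicate 2. It was 2 without ctrl estrus replicates 2 or 5, ctrl diestrus replicate 5, or FL1 diestrus replicates 3, 4 or 5. The calls over all genes moved too. The main test called 233 higher and 248 lower of 13857. The fewest, 153 and 157 of 14229, came without FL1 diestrus replicate 5, and without FL1 estrus replicate 1 there were 256 and 212 of 14204.

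Msmo1 oxidizes the methyl groups that are removed from lanosterol. Its level was 415, 626, 454, 584 and 419 CPM in ctrl and 487, 389, 518, 450.4 and 471 CPM in FL1 mice in estrus. In diestrus it was 443, 414, 315, 223 and 251 CPM in ctrl and 413, 246, 269, 237 and 276 CPM in FL1 mice. Each stage reached into the range of the other through 3 mice, with medians over both lines of 462 CPM in estrus and 273 CPM in diestrus. Over both lines it fell by 0.66 ± 0.15 (SE) on the log2 scale, with an adjusted p of 0.00896 in edgeR's test, and the 95% confidence interval ran from -0.95 to -0.36. Within the lines the change was -0.61 in ctrl and -0.69 in FL1 mice, with adjusted p of 0.235 and 0.175. Without FL1 diestrus replicate 1, whose 413 CPM stood apart from the other 4 mice of the group, the change in FL1 mice was -0.87 with an adjusted p of 0.0188, where 1.31% of all genes were then called.

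Cyp51 is the demethylase that acts on lanosterol. It was measured at 113.4, 119, 64.7, 141 and 110.9 CPM in ctrl and 111.4, 96.2, 131, 92.2 and 110.2 CPM in FL1 mice in estrus. In diestrus the values were 66.0, 95.6, 99.6, 34.9 and 42.4 CPM in ctrl and 105.9, 48.8, 50.9, 49.8 and 84.1 CPM in FL1 mice. The stages overlapped, with medians over both lines of 111.2 CPM in estrus and 58.4 CPM in diestrus. Over both lines it fell by 0.70 ± 0.19 on the log2 scale, with an adjusted p of 0.0418 in edgeR's test. The change was of nearly the same size within the lines, -0.70 in ctrl and -0.68 in FL1 mice. The 3′ end of Cyp51 shares 166 nt with Akap9, a gene on the opposite strand, and the strand setting of the counting is not given in the sources used here, so reads of the 2 genes cannot be told apart. Akap9 itself had a log2 fold change of 0.40 in the same comparison, with an adjusted p of 0.478.

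Hmgcs1 makes HMG-CoA, the compound from which mevalonate is formed. In estrus its level was 102.9, 290.4, 248, 241 and 193 CPM in ctrl and 358, 628, 271, 367 and 330.0 CPM in FL1 mice. In diestrus it was 260.3, 219, 159, 78.5 and 112.96 CPM in ctrl and 261, 141, 188, 149.6 and 119 CPM in FL1 mice. All FL1 mice in estrus were above all FL1 mice in diestrus, while the ctrl mice of the 2 stages overlapped widely. The log2 fold change was -1.19 ± 0.26 in FL1 mice, where the adjusted p was 0.0675, and -0.38 ± 0.31 in ctrl mice, with an adjusted p of 0.733. Over both lines it fell by 0.79 ± 0.23, with an adjusted p of 0.0475 in edgeR's test. Without FL1 estrus replicate 2, the mouse with 628 CPM, this was -0.65 with an adjusted p of 0.0980, so the call depends on that mouse among others. The stage effect in FL1 minus that in ctrl mice was -0.81 on the log2 scale, with a 95% confidence interval from -1.68 to 0.06.

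In the rest of the mevalonate part 5 of 6 tested genes had a log2 fold change below 0 over both lines, and none passed. Of all genes 49.4% were below 0 and 3.47% passed. Mvd, the decarboxylase that yields the first isoprenoid unit, was at 33.6, 34.6, 35.2, 52.2 and 19.5 CPM in FL1 mice in estrus and at 17.8, 13.7, 14.6, 16.4 and 9.55 CPM in FL1 mice in diestrus, without overlap. Its log2 fold change was -1.29 ± 0.33 in FL1 mice, where the adjusted p was 0.109, and -0.89 ± 0.28 over both lines, with an adjusted p of 0.0718. Mvk, mevalonate kinase, was at 31.9, 52.9, 44.0, 39.0 and 65.8 CPM in ctrl mice in estrus and at 13.9, 24.1, 43.0, 14.4 and 10.8 CPM in ctrl mice in diestrus. Only ctrl diestrus replicate 3 lay within the range of estrus. The log2 fold change in ctrl mice was -1.14 ± 0.37 with an adjusted p of 0.167, and without that replicate it was -1.57 with an adjusted p of 0.0436. DESeq2 called both genes over both lines. Acat2, the thiolase that opens the pathway, and Fdps, which makes farnesyl diphosphate, had log2 fold changes over both lines of -0.54 and -0.44. Ggps1, which leads isoprenoid units away from cholesterol to geranylgeranyl diphosphate, had 0.12, with a 95% confidence interval from -0.23 to 0.48. Acat2 and Ggps1 each share a stretch of the 3′ end with 2 other genes, so their counts are uncertain.

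In the sterol part, 10 of 12 genes had a log2 fold change below 0 over both lines (49.4% of all genes), and the median was -0.32. Besides Msmo1 and Cyp51 these included Nsdhl with -0.51 and Sqle, squalene epoxidase, with -0.43, whose adjusted p were 0.0943 and 0.112. Ebp, a sterol isomerase, was at 78.6, 59.2, 80.0, 67.8 and 94.6 CPM in FL1 mice in estrus and at 44.0, 57.0, 29.7, 27.6 and 55.6 CPM in FL1 mice in diestrus. These mice did not overlap, and the log2 fold change was -0.84 ± 0.26 with an adjusted p of 0.203. Lbr and Tm7sf2, which carry out the same reduction and can stand in for each other, had -0.04 and 0.10 over both lines. Tm7sf2 lies on the same strand as part of Vps51, and its low count leaves its interval wide, from -0.69 to 0.89 on the log2 scale. Fdft1, squalene synthase, had -0.21, but its last 500 nt overlap Ctsb on the other strand, and Ctsb itself fell by 0.89 with an adjusted p of 0.00132, so its value is uncertain.

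Hsd17b7 went the other way. It codes for the ketosteroid reductase of the sterol part, an enzyme that also reduces estrone to estradiol and is known from the corpus luteum. In estrus it was at 54.2, 50.4, 63.5, 77.3 and 17.1 CPM in ctrl and 39.7, 94.6, 28.2, 53.1 and 41.0 CPM in FL1 mice. In diestrus it was at 45.1, 82.2, 74.5, 126 and 48.3 CPM in ctrl and 869.6, 250.3, 117, 135 and 75.6 CPM in FL1 mice. In FL1 mice 4 of 5 in diestrus were above all mice in estrus, and 1 library held several times the level of the next.

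The log2 fold change of Hsd17b7 between the stages was 2.50 ± 0.55 in FL1 mice, where the adjusted p was 0.0675, and 0.51 ± 0.35 in ctrl mice, with an adjusted p of 0.671. Over both lines it rose by 1.501 ± 0.41, with an adjusted p of 0.0385 in edgeR's test. The library with 869.6 CPM, FL1 diestrus replicate 1, was also the one with 3105 CPM of luteal markers, where the other 4 mice of the group had 485 to 1780 CPM, and the part of luteal cells in the result was not tested. Without it the change over both lines was 0.98, or a ratio of 1.97, and the adjusted p was 0.0376. In FL1 mice it was then 1.48 with an adjusted p of 0.0449.

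**Figure D3:**
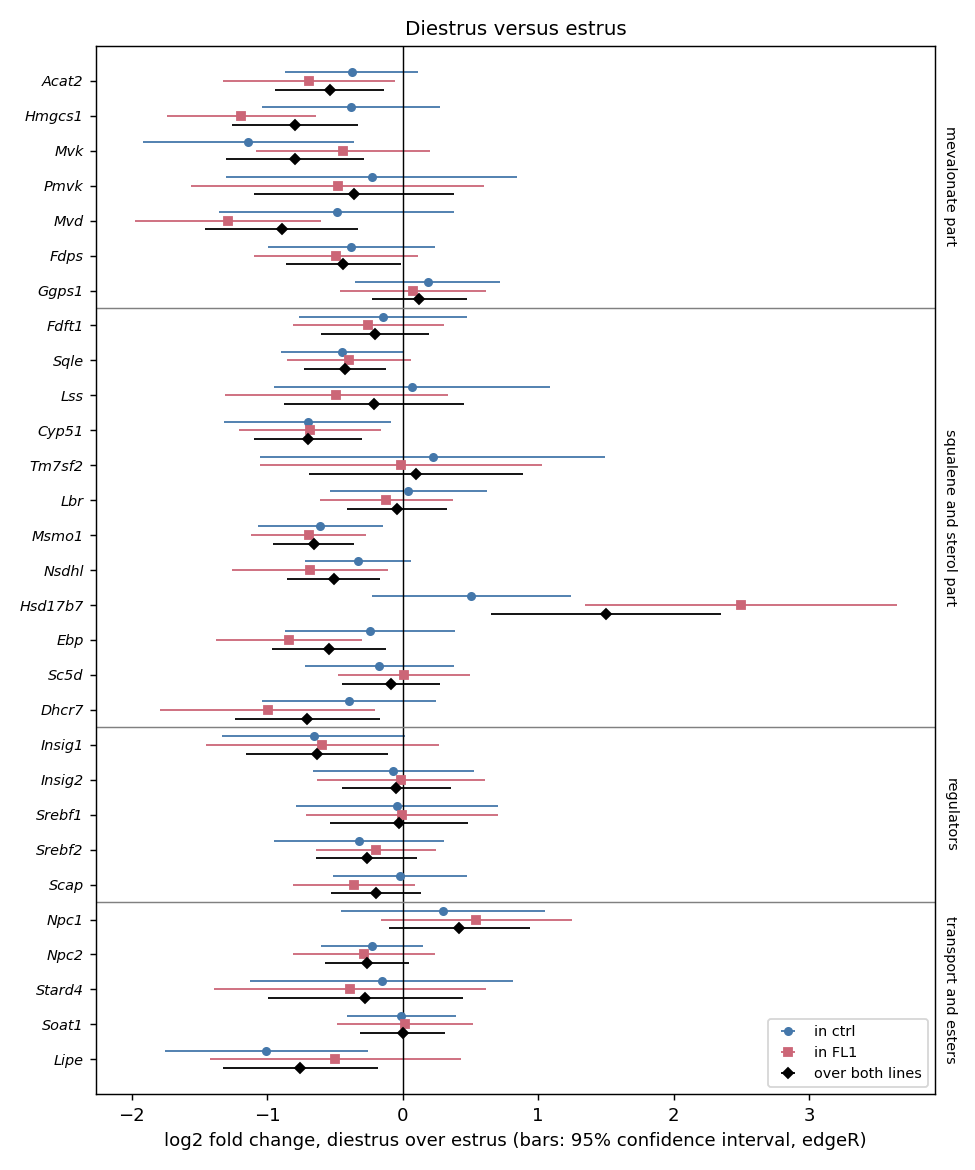
Log2 fold change of diestrus over estrus (x axis) for each of the 29 tested genes (y axis, grouped by role), in ctrl mice, in FL1 mice and over both lines, with 95% confidence intervals from edgeR. Over both lines 24 of 29 estimates lie left of 0, and that of Hsd17b7, 1.501, lies farthest to the right.

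Among the regulators no gene passed in any of the stage comparisons, where 0.221% to 3.47% of all genes did. All 5 estimates over both lines were below 0, as were 49.4% of those of all genes. The largest was that of Insig1, which holds SREBP in the endoplasmic reticulum and is itself a target of SREBP. It was at 52.5, 37.5, 36.4, 25.04 and 27.0 CPM in ctrl and 38.0, 13.4, 27.7, 8.14 and 30.4 CPM in FL1 mice in estrus. Diestrus values were 28.5, 33.1, 19.1, 19.3 and 13.6 CPM in ctrl and 16.1, 14.52, 13.8, 12.3 and 22.0 CPM in FL1 mice. The groups overlapped, and over both lines the log2 fold change was -0.63 ± 0.26 with an adjusted p of 0.208. Its relative Insig2 had -0.05, with an interval from -0.45 to 0.36. For the transcription factors the values were -0.27 for Srebf2, which mainly serves cholesterol genes, and -0.03 for Srebf1, which mainly serves fatty acid genes, with intervals from -0.64 to 0.11 and from -0.54 to 0.48. Scap had -0.19, with an interval from -0.53 to 0.14.

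Of the 5 transport and storage genes 3 had a log2 fold change below 0 over both lines (49.4% of all genes), and none passed (3.47% of all genes). Lipe, the hormone-sensitive lipase that frees cholesterol from its esters, was at 22.6, 29.9, 24.5, 16.2 and 20.4 CPM in ctrl mice in estrus and at 11.6, 14.9, 8.14, 12.2 and 10.0 CPM in ctrl mice in diestrus, without overlap. Its log2 fold change in ctrl mice was -1.01 ± 0.36 with an adjusted p of 0.220 in edgeR's test, and 0.0470 in DESeq2. In FL1 mice in diestrus it ran from 4.66 to 26.5 CPM and overlapped with estrus. Soat1, its counterpart in esterification, had 0.00 over both lines with an interval from -0.31 to 0.31. Npc1 and Npc2, which pass cholesterol out of lysosomes, had 0.42 and -0.26, and Stard4, a sterol carrier of the cytosol, had -0.28, with intervals that all include 0.

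Sequences before the transcription start are shown for genes called over both lines, of which Cyp51 and Hmgcs1 fell and Hsd17b7 rose. They are RefSeq sequences of build GRCm38.p6, given 5′ to 3′ on the strand of the gene. RefSeq and GENCODE do not place the starts alike. Of the 250 bases before the RefSeq start, 214 lie inside the gene as GENCODE has it for Msmo1, 49 for Cyp51, 36 for Hsd17b7 and 0 for Hmgcs1. These bases are left out, and Msmo1, with 36 bases remaining, is not shown. Capitals mark matches, on either strand, to TCACNCCAC, a form of the element that SREBP binds, to CCAAT, the box of its partner NF-Y, and to CACGTG, an E-box. Cyp51 lies on the minus strand with the sequence chr5:4104747-4104947, Hmgcs1 on the plus strand with chr13:119690101-119690350 and Hsd17b7 on the minus strand with chr1:169969242-169969455.
Cyp51: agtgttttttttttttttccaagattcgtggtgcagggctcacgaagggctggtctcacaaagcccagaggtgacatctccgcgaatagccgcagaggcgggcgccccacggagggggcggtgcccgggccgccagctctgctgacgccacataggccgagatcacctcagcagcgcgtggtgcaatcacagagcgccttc
Hmgcs1: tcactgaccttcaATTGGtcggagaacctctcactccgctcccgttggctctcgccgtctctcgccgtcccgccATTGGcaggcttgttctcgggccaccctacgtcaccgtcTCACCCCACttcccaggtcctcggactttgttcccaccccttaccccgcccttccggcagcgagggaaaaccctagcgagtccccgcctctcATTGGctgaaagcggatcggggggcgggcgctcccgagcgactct
Hsd17b7: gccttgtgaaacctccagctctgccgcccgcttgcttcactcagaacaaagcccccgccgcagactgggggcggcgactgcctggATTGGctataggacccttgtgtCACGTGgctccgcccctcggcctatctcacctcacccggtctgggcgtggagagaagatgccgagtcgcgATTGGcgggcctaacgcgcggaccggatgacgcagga
Hmgcs1 holds CCAAT, read on the other strand, at 237, 176 and 45 bases before the RefSeq start. It is the one gene of the 4 called with a match to TCACNCCAC, at 137 bases. Hsd17b7, the gene that rose, holds CCAAT on the other strand at 165 and 73 bases and CACGTG at 143 bases. The stretch shown for Cyp51 has no match to the spellings searched. Other forms of the element that SREBP binds were not searched in any of the genes. The CCAAT of Cyp51, at 29 bases, the 3 of Msmo1, at 160, 96 and 55 bases, and a further 1 of Hsd17b7, at 12 bases, come after the GENCODE start, so whether they lie before the gene depends on the annotation.

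Windows of 300 bases, 250 before and 50 after the RefSeq start, were found for 25 of the 30 genes. CCAAT was present in 22 of these 25 (88%), against 41.1% of all 27025 genes with a window and 43.2% of those tested in FL1 mice between the stages. All 10 sterol part genes with a window had it. CACGTG was present in 6 of 25 (24%), against 8.09% of all genes and 11.8% of those tested, and TCACNCCAC in 1 of 25, against 1.44% and 1.43%. The matches are letters in a window and show no binding.

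The second question was whether FL1 and ctrl mice differ in these genes. No gene of the list passed edgeR's test within a stage. In estrus 0 of 29 genes passed, where 0.769% of all genes did, and in diestrus 0 of 29, where 0.248% did. DESeq2 called none of the 29 in either stage, where it called 1.76% of all genes in estrus and 0.485% in diestrus. An unadjusted p under 0.05 was reached by 3 of 29 genes in estrus (Hmgcs1, Npc2 and Dhcr7, against 10.7% of all genes) and by 3 of 29 in diestrus (Hsd17b7, Sc5d and Npc2, against 5.56%), and all of these were higher in FL1 mice. No gene had groups without overlap, where 3.55% of all genes did in estrus and 1.59% in diestrus. The median log2 fold change over the 29 genes was 0.11 in estrus and 0.01 in diestrus. With 1 mouse left out it ran from -0.01 to 0.10 in estrus and from -0.13 to 0.14 in diestrus. The median half-width of the 95% confidence intervals, which are not adjusted for the number of genes, was 0.56 in estrus and 0.64 in diestrus. Changes below about that size could not be told from 0 for a typical gene. Passing the adjusted threshold took larger ones, as Hmgcs1, with 0.86 in estrus, did not pass. Over both stages, with the stage as a term, 0 of 29 genes passed, where 1.17% of all genes did, while 6 of 29 had an unadjusted p under 0.05 (11.3% of all genes) and DESeq2 called 2 (Npc2 and Sc5d, against 1.63%). An estimate above 0 was found for 16 of 29 genes, and for 51.1% of all genes.

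Npc2, the soluble lysosomal protein that hands cholesterol to Npc1, came nearest to a call. It was at 135, 191, 157, 211 and 218 CPM in ctrl and 256, 329.9, 269.97, 347 and 191 CPM in FL1 mice in estrus. In diestrus it was at 152, 149, 172, 153 and 157 CPM in ctrl and 345, 264, 133, 181 and 226 CPM in FL1 mice. In each stage 4 of 5 FL1 mice were above all ctrl mice. Over both stages the log2 fold change of FL1 over ctrl was 0.58 ± 0.15, with an adjusted p of 0.0560 in edgeR's test and 0.00800 in DESeq2. The value was 0.61 in estrus and 0.56 in diestrus. Under the alternative settings, with leaving out each mouse among them, it ran from 0.52 to 0.72 in estrus and from 0.37 to 0.70 in diestrus. Macrophage markers moved with the line too. Their summed level was 11.8 to 24.7 CPM in ctrl and 19.2 to 37.6 CPM in FL1 mice in estrus, and 1.61 to 9.49 CPM in ctrl and 5.67 to 38.8 CPM in FL1 mice in diestrus, and none of the 6 markers was detected in all 20 mice. Their part in the difference of Npc2 was not tested. In edgeR Npc2 passed when any 1 of 4 mice was left out, namely ctrl estrus replicate 5, FL1 estrus replicate 5 or FL1 diestrus replicates 3 or 4.

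Sc5d, a desaturase near the end of the sterol part, was at 34.5, 99.5, 91.6, 104.1 and 82.7 CPM in ctrl and 105.3, 140.2, 110.4, 80.6 and 146 CPM in FL1 mice in estrus. The values in diestrus were 68.9, 94.2, 74.5, 59.8 and 70.7 CPM in ctrl and 175, 120.1, 86.2, 106.2 and 102.5 CPM in FL1 mice. In each stage 4 of 5 FL1 mice were above all ctrl mice. Its log2 fold change over both stages was 0.59 ± 0.18, with an adjusted p of 0.108 in edgeR's test and 0.0398 in DESeq2.

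The differences of Hmgcs1 and Dhcr7 in estrus rested in part on 1 mouse. Dhcr7, the reductase that makes cholesterol in the last step, was at 82.8, 67.7, 87.7, 91.6 and 86.4 CPM in ctrl and at 110.5, 412, 115.8, 88.7 and 94.3 CPM in FL1 mice. Its log2 fold change was 0.98 ± 0.35 with an adjusted p of 0.263, and without FL1 estrus replicate 2 it was 0.30 with an adjusted p of 0.757. That of Hmgcs1 was 0.86 ± 0.27 with an adjusted p of 0.168, and without the same mouse 0.62 with an adjusted p of 0.411. The last 500 nt of Dhcr7 hold a stretch that 32 other genes share at 90% identity or more, so its count is uncertain. Such stretches also lie in the last 500 nt of Npc1, shared with 823 other genes, Tm7sf2 with 50 and Srebf2 with 43. Stard4 shares them with 6 other genes, Acat2 with 2 and Ggps1 with 2, which hold more reads than these members do. Fdps shares them with 7 that hold fewer reads. The counts of all these members are uncertain in the same way.

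For Hsd17b7 the log2 fold change of FL1 over ctrl in diestrus was 1.96 ± 0.54, with an adjusted p of 0.305. Without FL1 diestrus replicate 1 the difference was 0.96 with an adjusted p of 0.626. In estrus it was -0.04, with an interval from -0.79 to 0.72. The 2 INSIG genes had opposite signs over both stages, -0.57 ± 0.26 for Insig1 and 0.42 ± 0.20 for Insig2, with adjusted p of 0.393 and 0.424. The luteal markers, whose sums in estrus did not overlap between FL1 and ctrl mice, move with the line. In diestrus endothelial sums were 12.5 to 38.4 CPM in ctrl and 32.4 to 131 CPM in FL1 mice, and those of red blood cells 47.6 to 351 and 138 to 1620 CPM, while in estrus they were 29.7 to 90.7 and 35.4 to 106.1 CPM for endothelium and 290.1 to 675 and 323 to 1111 CPM for red blood cells. The part of the cells behind these sums in the line differences was not tested, and the luteal sum may include GCs.

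**Figure D4:**
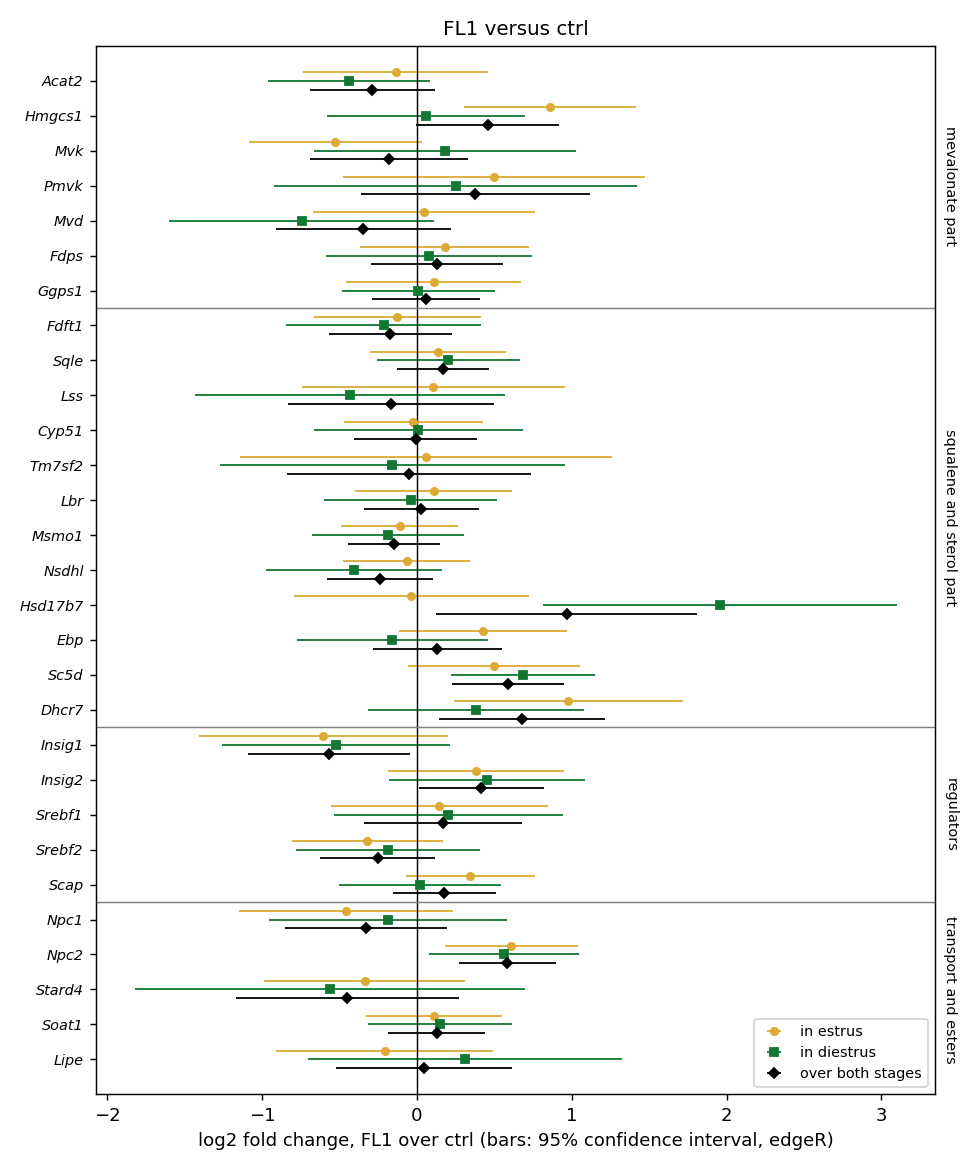
Log2 fold change of FL1 over ctrl (x axis) for each of the 29 tested genes (y axis, grouped by role), in estrus, in diestrus and over both stages, with 95% confidence intervals from edgeR. Over both stages 16 of 29 estimates lie right of 0, and Npc2 is the one gene whose intervals lie wholly above 0 in all of the comparisons drawn (0.61, 0.56 and 0.58).

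**Figure D5:**
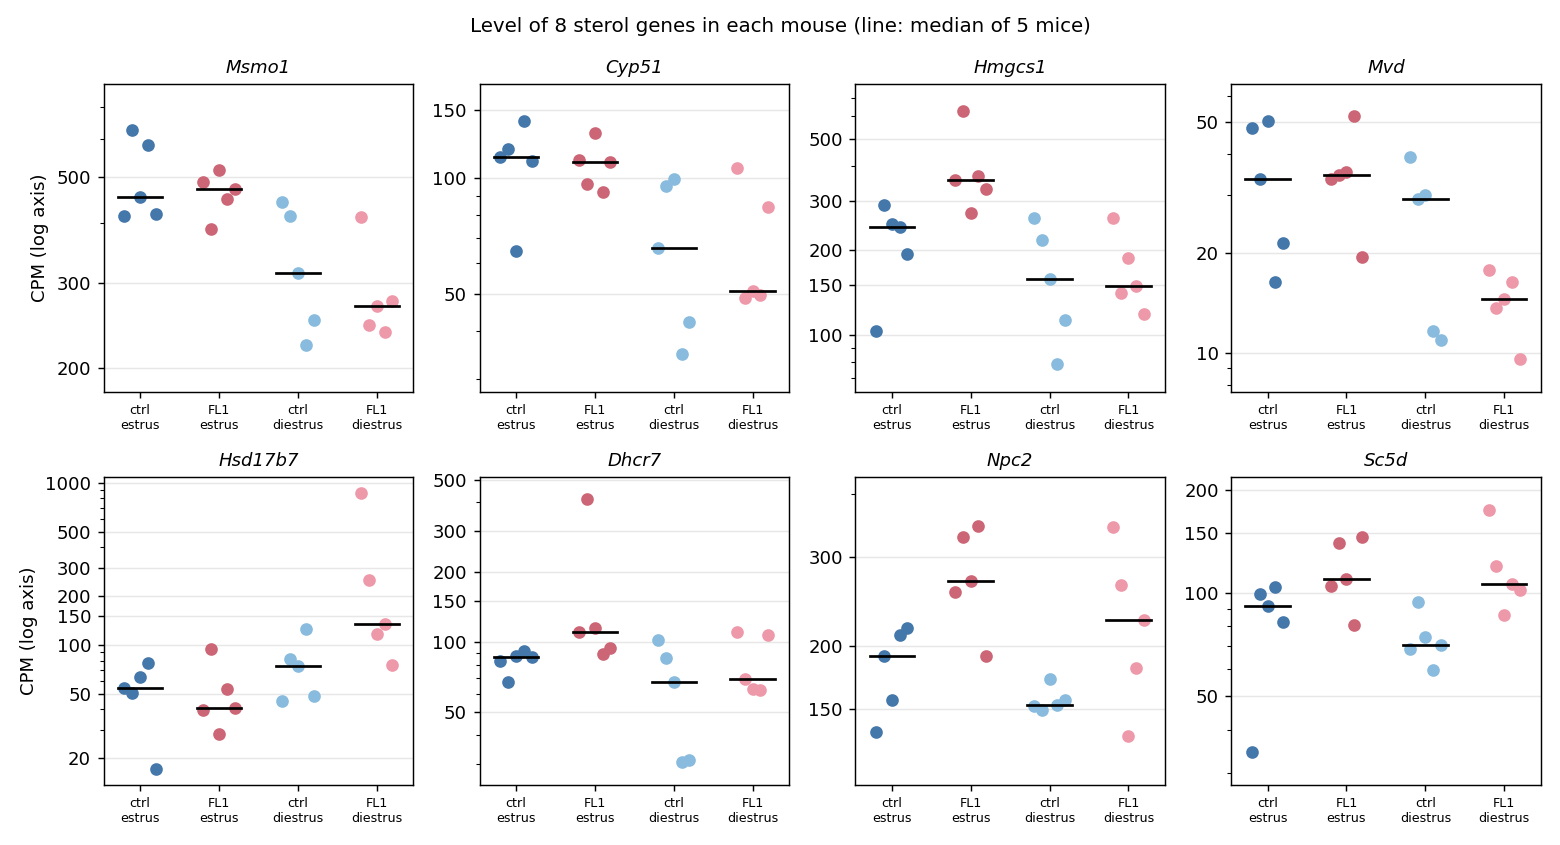
CPM on a log axis of 8 genes in each mouse (points) in the 4 groups, with a line at the median of 5 mice. FL1 estrus replicate 2 stands out in Hmgcs1 (628 CPM) and Dhcr7 (412 CPM), and FL1 diestrus replicate 1 in Msmo1 (413 CPM) and Hsd17b7 (869.6 CPM).

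Whether the effect of the line differs between the stages was tested by the interaction over all 20 mice. For 0 of 29 genes did it pass in edgeR, as for 0% of all genes, and in DESeq2 for none of the 29, as for 0.00372% of all genes. One gene, Hsd17b7, had an unadjusted p under 0.05 (4.75% of all genes). Its line effect in diestrus was higher than that in estrus by 1.98 ± 0.69 on the log2 scale, with an adjusted p of 0.933. Without FL1 diestrus replicate 1 it was 0.98, a ratio of 1.97, with an adjusted p of 0.916. The median half-width of the 95% confidence intervals was 0.82, so moderate differences between the stages could not be seen.

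Other genes of sterol and lipid metabolism were looked up as lists, to be read against the 3.47% of all genes called between the stages over both lines. For 17 targets of SREBP, mostly of fatty acid and phospholipid synthesis, the median log2 fold change over both lines was -0.45. In diestrus 3 of them were called lower and none higher. These were Tmem97, a regulator of NPC1 protein, with -1.07 and an adjusted p of 0.00471, Scd1, the stearoyl-CoA desaturase, with -1.48 and 0.0230, and Me1, the malic enzyme that supplies NADPH, with -1.05 and 0.0301. Of 13 genes of sterol sensing and SREBP processing 1 rose, Rnf145, with 0.73 and an adjusted p of 0.0439, and its product is a ubiquitin ligase of the endoplasmic reticulum. None of 12 genes of isoprenoid use passed edgeR's test in any comparison, DESeq2 called none either, and at most 1 had an unadjusted p under 0.05 in any of them.

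Among 21 genes of uptake, transfer and storage 3 passed in this comparison, where 3.47% of all genes did. Scarb1, the receptor that takes up cholesteryl esters from HDL, fell in diestrus by 0.64 over both lines with an adjusted p of 0.0109. It ran from 669.9 to 792 CPM in ctrl and from 760.2 to 910 CPM in FL1 mice in estrus, and from 282 to 579 CPM in ctrl and from 602 to 827 CPM in FL1 mice in diestrus. Tspo, an outer membrane protein of mitochondria, fell by 0.79 with an adjusted p of 0.0182, and Gramd1b, which carries cholesterol from the plasma membrane, rose by 0.89 with an adjusted p of 0.00530. Of 9 genes of steroid hormone synthesis 4 fell in diestrus over both lines, namely Star by 1.31, Cyp11a1 by 1.52, Fdxr by 0.73 and Por by 0.60 on the log2 scale. Their adjusted p lay between 0.00603 and 0.0400. Cyp19a1, the aromatase, rose by 1.56 with an adjusted p of 0.0232, so 5 of 9 passed, where 3.47% of all genes did. The luteal markers had a median sum of 3363 CPM in estrus and 1021 CPM in diestrus in FL1 mice, and of 522 and 698 CPM in ctrl mice, and their part in these changes was not tested.

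Between the lines, genes of these other lists passed. Star, which moves cholesterol into mitochondria, was at 55.1, 98.1, 301, 171 and 117 CPM in ctrl and 351, 647, 1008, 785 and 393 CPM in FL1 mice in estrus. Diestrus values were 26.2, 76.8, 51.6, 39.1 and 94.4 CPM in ctrl and 251, 420.4, 288, 289 and 109.3 CPM in FL1 mice. The lines did not overlap in either stage, and the log2 fold change was 2.10 ± 0.38 in estrus and 2.25 ± 0.36 in diestrus, with adjusted p of 0.0106 and 0.00899. In estrus Fdx1, the electron donor of side chain cleavage, was stronger expressed by 1.72, Akr1c18, which inactivates progesterone, by 4.02, Nceh1, a hydrolase of cholesteryl esters, by 1.06, and Me1 by 1.53. Their adjusted p lay between 0.000306 and 0.0327. In estrus 0.769% of all genes were called. There Fdx1 ran from 174 to 414 CPM in ctrl and was at 781, 2467, 742, 492 and 605 CPM in FL1 mice. FL1 estrus replicate 2, with 2467 CPM, thus raised the value of Fdx1, and no fit without it is given here. The same mouse was highest in Me1, with 1203 CPM, where the other FL1 mice in estrus had 348 to 653 CPM. Akr1c18 is 1 of the luteal markers counted above, which GCs may express as well, and the part of luteal cells in these line differences was not tested.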

How the data were processed

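RNA of granulosa cells from 20 mice, 5 per line and stage, was sequenced from the 3′ end of transcripts. The authors aligned trimmed reads with STAR to GRCm38 and deposited raw counts of reads per gene for each mouse. Of the reads in the files 48.9 to 58.4% were on genes. Reads that matched several places (23.2 to 32.8%) or no feature (7.5 to 19.4%) were left out of library sizes and tests. The counting's strand setting is not given in the sources used here. Each sample is a different mouse, so p-values measure the spread between mice.

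From these counts, edgeR 4.0.16 in R 4.3.3 gave the main test, a quasi-likelihood F test after TMM normalization and filterByExpr (minimum count 10, total 15), with Benjamini-Hochberg adjustment over all genes tested and a threshold of 0.05. Standard errors are the absolute log2 fold change over the square root of F. CPM used TMM over the 20 mice, and log2 CPM a prior count of 2. Comparisons within a stage or line used the 10 mice compared, the others all 20. DESeq2 1.42.0, another scaling, no filter, robust fitting, a replicate block and leaving out each mouse were tried as alternatives. The scripts were tested on simulated data. Near-identical 3′ ends were searched with BLAST 2.17.0 over the last 500 nt of transcripts, at 90% identity or more over at least 100 nt. Python 3.11.15 and Matplotlib 3.10.9 drew the figures.

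All members may be named, and of the other lists those with an adjusted p of 0.05 or less. Members and lists were chosen with earlier results of these data known. The comparison of the stages over both lines and the choice of the promoters shown, which stop at the first start that RefSeq or GENCODE gives, were added after the data were seen. Other genes of the pathway were not analysed here.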

Additional observations from a re-analysis of the deposited data

Results flagged for a closer look

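In 7 of 124 groups of 5 mice (5.65%) the highest mouse stood apart from the others of its group by Dixon's test, where chance alone gives about 1 in 20 groups. In FL1 mice in estrus, replicate 2 had 628 CPM of Hmgcs1, with the next mouse at 367 CPM, and 412 CPM of Dhcr7, with the next at 115.8 CPM. In FL1 mice in diestrus, replicate 1 had 869.6 CPM of Hsd17b7, with the next at 250.3 CPM, and 413 CPM of Msmo1, with the next at 276 CPM. In ctrl mice in diestrus, replicate 2 had 127 CPM of Lbr with the next at 71.6 CPM, replicate 1 had 103.8 CPM of Stard4 with the next at 38.2 CPM, and replicate 3 had 1127 CPM of Soat1 with the next at 920.2 CPM.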

How the results depend on the processing

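Of the 203 log2 fold changes, 29 genes in 7 comparisons, 71 changed sign under at least 1 alternative. The 40 with an unadjusted p under 0.05 in the main test did not. Of their 829 values under the alternatives, 752 stayed on their side of the threshold, 35 passed it where the main test did not, and 42 failed it where the main test passed. The number of genes called depended on the setting, and the cause was not tested. Between the lines it was 2 in estrus (Dhcr7 and Hmgcs1) and 1 in diestrus (Hsd17b7) with no filter on low counts. Over all 24103 genes tested in estrus, 238 were then called higher and 135 lower, where the main test called 54 and 46 of 13007. In diestrus 55 were then called higher and 52 lower of 24349, where the main test called 12 and 20 of 12886. Over both stages 2 genes of the list were called in DESeq2 and 1 (Npc2) with RLE scaling, no filter or robust fitting. Over all genes RLE scaling called 98 higher and 72 lower of 13857, no filter 191 and 128 of 26886, and robust fitting 71 and 69. Between the stages 1 gene of the list was called in DESeq2 in ctrl mice. In FL1 mice 4 were called in DESeq2, 3 with no filter and 1 with all 20 mice in one fit. Over all 24355 genes in FL1 mice, no filter called 122 higher and 177 lower in diestrus. With all 20 mice in a single fit, 32 of 14938 genes were called higher and 33 lower. Over both lines RLE scaling called 235 of all 13857 genes higher and 247 lower in diestrus, and robust fitting 229 and 227. Of the list, 4 genes were called in the main test, 3 with RLE scaling, 6 in DESeq2 and 2 (Cyp51 and Msmo1) with robust fitting. With 1 mouse left out, the number of genes called was 0 to 0 in estrus, in diestrus and in the interaction, 0 to 1 between the lines over both stages, 0 to 1 between the stages in ctrl mice (1, Mvk, without ctrl diestrus replicate 3), 0 to 3 in FL1 mice (3 without FL1 diestrus replicate 1, with 1.31% of all genes called) and 1 to 7 over both lines. Over all genes, the stage comparison over both lines called 481 in edgeR and 873 in DESeq2. The mean log2 CPM in FL1 mice in estrus was 6.13, and 5.95 with the median over the genes in place of the mean. With a replicate block, 0 genes of the list were called in the planned comparisons and 4 over both lines (Hmgcs1, Hsd17b7, Msmo1 and Mvd). Over both lines the block called 225 of all 13857 genes higher and 201 lower. Same-numbered mice of the groups compared correlated between -0.116 and 0.117 in their deviations, so the numbers do not pair them. Genes with few reads, such as Idi1 and Tm7sf2, and those with shared 3′ ends, are the least certain.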
